A study of Homo sapiens with 6 samples.

Results

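The transcripts described here were the box C/D small nucleolar RNAs (snoRNAs) in RNA-seq of U2932, a cell line of the ABC subtype of diffuse large B-cell lymphoma. Members were the gene symbols starting with SNORD, leaving out SNORD115 and SNORD116, which gave 21 of the 20667 symbols in the expression tables. The class was taken up with the comparison of ROCK2 KD and Scr shRNA libraries already known, so its values in that comparison are given as a description. All U2932 cells carried a pLKO.1 lentiviral vector with puromycin resistance and tGFP, expressing a shRNA against the kinase ROCK2 (ROCK2 KD, 3 libraries) or a scrambled shRNA (Scr shRNA, 3 libraries). Both were stable lines without further treatment, and replicates were numbered 1 to 3 in each. The labels do not say whether libraries of a group came from separate infections or cultures, so any p-value covers the spread between these libraries, which may be technical.

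Box C/D snoRNAs are short noncoding RNAs of the nucleolus and Cajal bodies. Most are cut out of the introns of host genes, often genes for ribosomal proteins or translation factors or noncoding snoRNA hosts. They are named for a C box near the 5′ end and a D box near the 3′ end, which are bound by the core proteins SNU13, NOP56, NOP58 and the methyltransferase fibrillarin (FBL). Most base-pair with ribosomal RNA or a small nuclear RNA and direct methylation of a ribose there, and a few act in the cleavage of precursor ribosomal RNA.

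Only SNORD17 was above 0 in all 6 libraries, 10 of the 21 members were above 0 in at least 1 library, and 11 were listed at 0 throughout. The 2 highest values of the class, 1206 FPKM for SNORD33 and 551 FPKM for SNORD76, each stood in a single library, with 0 in the other 5. FPKM are fragments mapped to a transcript, divided by a length taken for it and by the fragments mapped in the library. The members with values in several libraries were SNORD17 in 6, SNORD10 in 5 and SNORD22 in 4, and no member was called as different between ROCK2 KD and Scr shRNA.

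Sequences were read from GENCODE 44 lifted to GRCh37, the build of the alignments (hg19), which held an entry for 18 of the 21 members. SNORD22, SNORD76 and SNORD49A are given by name alone. Those printed are 7 of the 10 members above 0, since the values turn on them. Capitals mark the first TGATGA (C box) starting within the first 25 bases and the last CTGA (D box) with at most 16 bases after it, searched on the sense strand.
SNORD17: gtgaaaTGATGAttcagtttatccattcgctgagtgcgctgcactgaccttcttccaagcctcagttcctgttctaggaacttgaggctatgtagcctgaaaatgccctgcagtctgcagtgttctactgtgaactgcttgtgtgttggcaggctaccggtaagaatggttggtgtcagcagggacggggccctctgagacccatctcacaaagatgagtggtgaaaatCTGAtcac
SNORD10: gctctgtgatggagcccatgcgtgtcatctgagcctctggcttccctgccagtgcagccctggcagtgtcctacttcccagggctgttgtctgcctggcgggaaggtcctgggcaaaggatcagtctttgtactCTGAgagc
SNORD15A: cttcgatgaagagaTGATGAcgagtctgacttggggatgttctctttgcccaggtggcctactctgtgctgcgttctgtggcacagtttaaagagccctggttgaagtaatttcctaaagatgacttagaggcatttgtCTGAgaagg
SNORD23: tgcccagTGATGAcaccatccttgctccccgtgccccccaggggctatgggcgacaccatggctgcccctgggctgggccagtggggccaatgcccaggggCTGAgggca
SNORD33: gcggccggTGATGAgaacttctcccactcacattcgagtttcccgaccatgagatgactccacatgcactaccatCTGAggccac
SNORD94: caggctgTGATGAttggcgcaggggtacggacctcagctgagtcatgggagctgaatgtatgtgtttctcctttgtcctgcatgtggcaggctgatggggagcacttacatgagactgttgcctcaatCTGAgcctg
SNORD97: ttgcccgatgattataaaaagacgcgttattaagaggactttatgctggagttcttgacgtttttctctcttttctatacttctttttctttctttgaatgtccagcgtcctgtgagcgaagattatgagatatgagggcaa
SNORD17 lies at chr20:17943353-17943589, minus strand, in an intron of SNX5, a sorting nexin gene. SNORD10 lies at chr17:7480129-7480270, plus strand, in an intron of EIF4A1, a translation initiation helicase. SNORD15A (chr11:75111435-75111582, plus strand) lies in an intron of RPS3, a ribosomal protein gene that also hosts SNORD15B. SNORD23 is at chr19:48259110-48259219, plus strand, in an intron of NOP53, which the tables list as GLTSCR2. SNORD33 is at chr19:49993872-49993956, plus strand, in an intron of RPL13A. SNORD94 is at chr2:86362993-86363129, plus strand, in an intron of PTCD3. SNORD97 is at chr11:10823014-10823155, minus strand, in an intron of EIF4G2.

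The letters of both boxes were present in 13 of the 18 members with a sequence, and those of the D box in 17. For comparison, 0 of the 46 H/ACA snoRNAs with a sequence (symbols starting with SNORA) held both boxes in these windows, and 5 held the D box letters. Of the 11 small Cajal body RNAs with a sequence (symbols starting with SCARNA), a group that includes box C/D forms, 4 held both. SNORD10 had only the D box letters and SNORD97 had neither, which says only that these exact letters were not in these windows. SNORD22 (U22) is the member known for processing of the 18S ribosomal RNA, SNORD17, SNORD15A, SNORD15B and SNORD76 are assigned to 28S ribosomal RNA and SNORD33 to 18S ribosomal RNA. SNORD10 and SNORD94 are assigned to the U6 spliceosomal RNA, and SNORD97 to a methionine tRNA.

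The FPKM of a library summed to between 208289 and 480612, and FPKM do not state the depth behind a value. The B lineage marker CD79B reached 538 FPKM, and 13 of 14 markers of other cell types were below 1 FPKM in every library, the exception being EPCAM with up to 5.00 FPKM. ROCK2 was at 2.75, 5.35 and 1.26 FPKM in ROCK2 KD replicates 1, 2 and 3 and at 4.32, 7.21 and 5.78 FPKM in the Scr shRNA libraries of the same numbers. It was lower in all 3 pairs, by 0.81 on the log2(scaled FPKM + 1) scale, with an adjusted p of 0.797 in limma. In bulk samples, fewer cells and less RNA per cell cannot be told apart.

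SNORD17 was measured at 8.27, 54.1 and 22.9 FPKM in ROCK2 KD replicates 1, 2 and 3 and at 7.71, 37.8 and 32.1 FPKM in Scr shRNA replicates 1, 2 and 3. The groups overlapped, and both replicate 1 libraries were the lowest. After scaling of the libraries (trimmed mean of log ratios), the values were 12.3, 44.2 and 18.7 in ROCK2 KD and 11.4, 30.5 and 27.1 in Scr shRNA, so replicate 1 remained lowest. The fitted difference, ROCK2 KD minus Scr shRNA, was 0.03 on the log2(scaled FPKM + 1) scale with an SE of 0.19. By pair the differences were 0.09, 0.52 and -0.51, so replicate 3 ran the opposite way to the other pairs. Without replicate 2 the fitted difference was -0.21.

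SNORD10 was measured at 8.19, 0 and 6.37 FPKM in ROCK2 KD replicates 1, 2 and 3 and at 10.3, 5.83 and 3.06 FPKM in the Scr shRNA libraries. ROCK2 KD was lower in replicates 1 and 2 and higher in replicate 3, and the groups overlapped. SNORD22 was measured at 16.1, 0 and 24.3 FPKM in ROCK2 KD and at 12.4, 26.8 and 0 FPKM in Scr shRNA. Each group had 1 library at 0, in replicate 2 for ROCK2 KD and in replicate 3 for Scr shRNA. The fitted differences were -0.68 (SE 0.53) for SNORD10 and 0.08 (SE 1.37) for SNORD22. Without replicate 2, which holds the 0 of SNORD10, the fitted difference of SNORD10 was 0.23, and without replicate 3 it was -1.36. Pair by pair, SNORD22 differed by 0.35, -4.50 and 4.38 on the log2(scaled FPKM + 1) scale, where a 0 in either library sets the size of the difference, so neither value is a fold change.

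**Figure D1:**
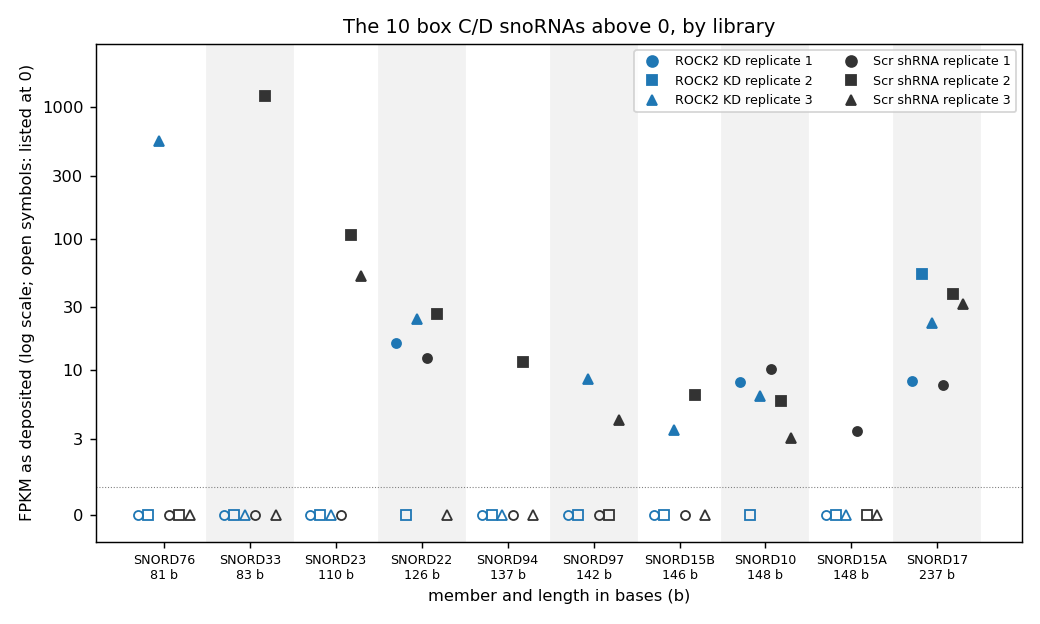
FPKM of the 10 members above 0 (log axis, with values of 0 below the dotted line), ordered by length in bases, with ROCK2 KD in blue and Scr shRNA in black and a symbol for each replicate number. SNORD17 is above 0 in 6 libraries, while the values of 1206 and 551 FPKM at the short end are single points over rows of zeros.

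The remaining 7 members above 0 were seen in 1 or 2 libraries. SNORD33 was at 1206 FPKM in Scr shRNA replicate 2 only. SNORD76 was at 551 FPKM in ROCK2 KD replicate 3 only. SNORD23 was at 106 FPKM in Scr shRNA replicate 2 and 51.5 FPKM in Scr shRNA replicate 3, and at 0 in the ROCK2 KD libraries. These 3 are the shortest of the members above 0, at 83, 81 and 110 bases.

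SNORD15A was at 3.44 FPKM in Scr shRNA replicate 1 only. Its neighbour in the same host gene, SNORD15B, was at 3.51 FPKM in ROCK2 KD replicate 3 and 6.54 FPKM in Scr shRNA replicate 2, so the RPS3 snoRNAs were never above 0 in the same library. SNORD94 was at 11.6 FPKM in Scr shRNA replicate 2 only. SNORD97 was at 8.61 FPKM in ROCK2 KD replicate 3 and 4.16 FPKM in Scr shRNA replicate 3. The 11 members listed at 0 in every library were SNORD4A, SNORD8, SNORD12B, SNORD16, SNORD49A, SNORD58C, SNORD83A, SNORD86, SNORD88C, SNORD89 and SNORD104. Among these, SNORD8 is assigned to U6, SNORD4A and SNORD16 to 18S and SNORD12B, SNORD49A and SNORD104 to 28S ribosomal RNA. An exact 0 in such a table can be a failed estimate, so these members are described as listed at 0, not as absent.

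Between 1 and 7 members were above 0 in a library, with 3, 1 and 6 in ROCK2 KD replicates 1, 2 and 3 and 4, 7 and 4 in Scr shRNA. The ranges of the groups overlapped. The 21 members summed to 32.5, 54.1 and 616 FPKM in ROCK2 KD and to 33.9, 1401 and 90.8 FPKM in Scr shRNA. The share of all FPKM was highest in Scr shRNA replicate 2, at 0.320%, and 0.129% in ROCK2 KD replicate 3, against 0.0123% to 0.0189% in the other 4 libraries. SNORD33 made up 86.1% of the former sum, and SNORD76 made up 89.3% of the latter. With SNORD33 and SNORD76 left out, the sums were 32.5, 54.1 and 65.6 FPKM in ROCK2 KD and 33.9, 195 and 90.8 FPKM in Scr shRNA.

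Paired by replicate number, the 21 members gave 63 pairs of a ROCK2 KD and a Scr shRNA value. Both values were 0 in 45 pairs, and of the 18 pairs with any value above 0, 11 were above 0 on a single side. Of those 11, 8 were above 0 in Scr shRNA and 3 in ROCK2 KD, where over all symbols 2727 of 5240 such pairs were above 0 in Scr shRNA, and in SNORA 21 of 47. By replicate number, the Scr shRNA side accounted for 1, 6 and 1 of them and the ROCK2 KD side for 0, 0 and 3, so the excess stood in replicate 2. In replicate 3 the ROCK2 KD side had more. Over all symbols in the tables, 10.2% of the pairs with any value above 0 were above 0 on a single side, against 61.1% for the members, 64.4% for SNORA and 25.8% for SCARNA.

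For the test across genes, 10526 symbols reached 1 FPKM in 3 or more libraries, and 3 of the 21 members passed this filter, namely SNORD10, SNORD17 and SNORD22. limma called 0 of these 3 at an adjusted p under 0.05, where it called 0 of all 10526 genes (0%). At an unadjusted p under 0.05 it called 0 of the 3, against 570 of all genes (5.42%). The direction was the same in all 3 pairs for 0 of the 3 members, against 25.1% of all genes. Leaving out replicate 2 or replicate 3 brought 1 (SNORD22) and 2 (SNORD10 and SNORD22) of the 3 under an unadjusted p of 0.05, in opposite directions for SNORD22 (2.30 and -2.02). Over all genes, 525 of 10078 and 413 of 10151 were under that p in these fits.

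The replicate number was not used in choosing the class. In a limma F test over the replicate terms, 2 of the 3 members tested, SNORD17 (adjusted p = 0.00507) and SNORD10 (adjusted p = 0.0333), differed between replicate numbers, where 48.8% of all genes tested did. SNORD22 did not pass (adjusted p = 0.422). SNORD17 was lowest in replicate 1, whereas the scaled values of SNORD10 were highest there, at 12.1 and 15.3, against 0 to 5.20 in the other libraries. SNORD10 stood at 2, 0 and 2 of the fitted steps described below in ROCK2 KD and at 3, 1 and 1 in Scr shRNA. ROCK2 KD replicates 1 and 3, both at 2 steps, had scaled values of 12.1 and 5.20. The F test does not take into account how few steps lie behind a value. With FPKM as deposited, 1 of the 3 members passed, where 8113 of the 10526 genes did, and with a pseudocount of 0.1, 1 passed, where 5019 genes did.

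The lengths of the members, taken from RefSeq, ran from 71 to 237 bases, with a median of 103 bases. All 7 members of 126 bases or more were above 0 in at least 1 library, and 3 of the 14 members of 114 bases or less were. The dividing length of 120 bases was chosen after the values had been seen. Below it, 80 of 84 values were 0 and the values above 0 ran from 51.5 to 1206 FPKM. Above it, 21 of 42 values were 0 and the others ran from 3.06 to 54.1 FPKM.

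Across the 10 members above 0, the lowest value above 0 fell with length, with a Spearman's rho of -0.86 (n = 10 members, which share the 6 libraries). FPKM divide by length, and the value of a fragment is set by the length the software uses. SNORD17, the longest member, was compared with an H/ACA snoRNA of like length. In the 2 libraries where SNORA58 (236 bases) was above 0, SNORD17 (237 bases) was 48.8 times (ROCK2 KD replicate 2) and 59.3 times (ROCK2 KD replicate 3) its FPKM. The small Cajal body RNA SCARNA12 (270 bases) was above 0 in all 6 libraries, at 4.01 to 13.1 FPKM, and exceeded SNORD17 (7.71 FPKM) in Scr shRNA replicate 1.

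**Figure D2:**
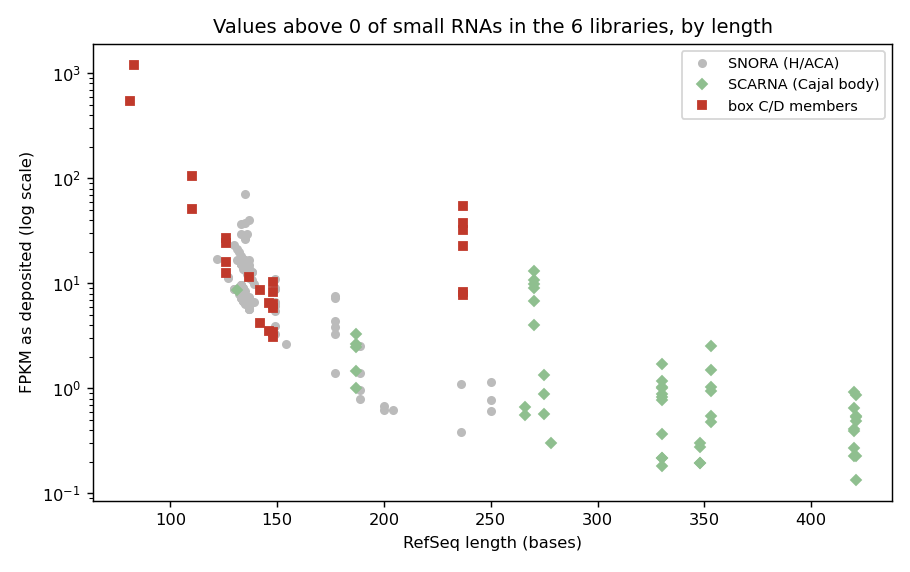
FPKM above 0 (log axis) against RefSeq length in bases for box C/D members (red squares), H/ACA snoRNAs (grey circles) and small Cajal body RNAs (green diamonds), with a point for each RNA and library. The highest member values stand at the short end, with 1206 FPKM at 83 bases, and the 6 SNORD17 points at 237 bases lie above the H/ACA points near that length.

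Zeros were frequent in all small RNA classes. In the members, 101 of 126 values were 0 (80.2%), against 76.4% in 70 SNORA, 47.1% in 17 SCARNA and 21.2% over all symbols. The share of transcripts above 0 in at least 1 library was 47.6% for the members, 57.1% for SNORA, 70.6% for SCARNA and 90.9% over all symbols. The median length was 103 bases for the members, 135 bases for SNORA and 270 bases for SCARNA, in the same order as these shares.

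The low values fell on a small number of shared levels. Small RNAs of the same length shared identical values within a library in 16 instances. SNORD94, SNORA34 and SNORA67, all of 137 bases, were each at 11.6 FPKM in Scr shRNA replicate 2. In Scr shRNA replicate 1, SNORD10 was 3.00 times SNORD15A, and both have 148 bases. A step, the FPKM that would stand for 1 fragment at a given length, was therefore fitted in each library over the small RNAs of 122 to 150 bases, a choice made after these values had been seen. Whether a step is 1 fragment was not checked against read counts, which were not used here. Lengths are those of RefSeq, and the annotation behind the FPKM is not given in the sources used here. For SNORD10 the GENCODE entry printed above has 142 bases and the RefSeq entry 148.

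Of 100 values from 41 small RNAs, 97 lay within 5% of a whole multiple of the step, and so did all 15 values of the 6 members of this length (largest deviation 3.83%). The fit was picked among many starts by that share, so the share is no independent check. From a single start 92 of the 100 values and 11 of the 15 did, and 1 member value was read differently. At 137 bases the step was 7.42, 13.7 and 5.70 FPKM in ROCK2 KD replicates 1, 2 and 3 and 6.09, 11.5 and 5.53 FPKM in Scr shRNA. At 148 bases it was 4.09, 6.91 and 3.19 FPKM in ROCK2 KD and 3.43, 5.83 and 3.06 FPKM in Scr shRNA, so a step was worth most in replicate 2.

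In steps, SNORD10 stood at 2, 0 and 2 in ROCK2 KD replicates 1, 2 and 3 and at 3, 1 and 1 in Scr shRNA. SNORD22 stood at 1, 0 and 2 in ROCK2 KD and at 1, 1 and 0 in Scr shRNA. SNORD15A and SNORD94 stood at 1 in their single libraries, SNORD15B at 1 in both of its libraries, and SNORD97 at 2 in ROCK2 KD replicate 3 and 1 in Scr shRNA replicate 3. Thus 10 of the 15 values were 1 step, 4 were 2 steps and 1 was 3 steps, summing to 10 steps in ROCK2 KD and 11 in Scr shRNA over 6 members.

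If a step is 1 fragment, a value of 0 allows up to 3 steps, and 3 steps came to between 9.17 and 102 FPKM, depending on the library and the length. Of the 15 values, 14 were below the 3 steps of their own library, and the exception was SNORD10 in Scr shRNA replicate 1. The 0 of SNORD22 in ROCK2 KD replicate 2 allowed up to 102 FPKM, more than any value of this snoRNA, and its 0 in Scr shRNA replicate 3 allowed up to 38.0 FPKM. These limits hold only if a step is 1 fragment, and they cover counting error only. SNORD17, SNORD23, SNORD33 and SNORD76 lay outside the fitted lengths, and the number of fragments behind them was not placed.

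**Figure D3:**
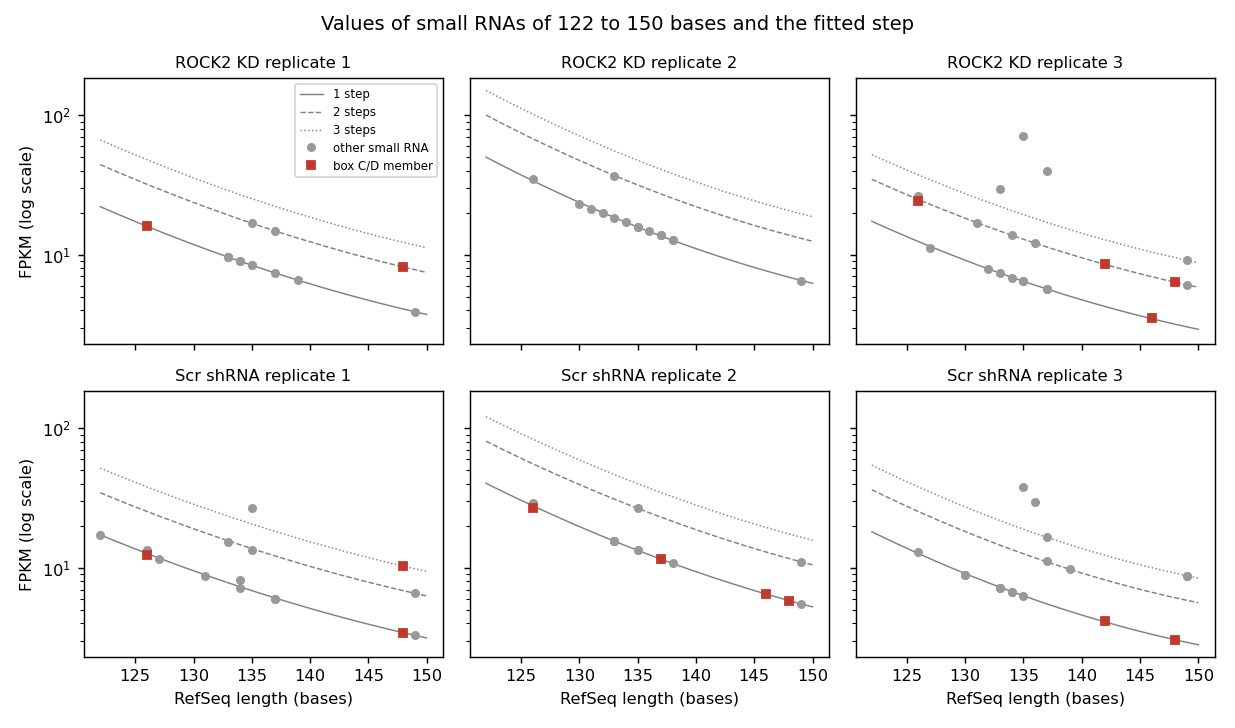
FPKM (log axis) of the small RNAs of 122 to 150 bases in each library, with box C/D members as red squares and others as grey circles, and lines for 1, 2 and 3 fitted steps. The 15 member values lie on the lines, 10 of them on that for 1 step.

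The spread within pairs was compared with that of longer transcripts. The residual SD of the limma fit, after the replicate number and the condition were taken out, was 1.19 for SNORD10, 0.367 for SNORD17 and 3.15 for SNORD22 on the log2(scaled FPKM + 1) scale, at percentiles 99.88, 94.75 and 99.98 of all genes tested. Its median was 1.09 over the 23 genes tested of up to 300 bases, 0.156 over 292 genes of more than 300 and up to 1000 bases and 0.123 over 4550 genes of more than 4000 bases. Among genes with a mean log2 value of 2 to 6, the medians were 1.19 (15 genes) and 0.123 (3439 genes) in the shortest and longest class. SNORD17 was thus less variable than the median short transcript and more variable than the median gene (0.129).

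**Figure D4:**
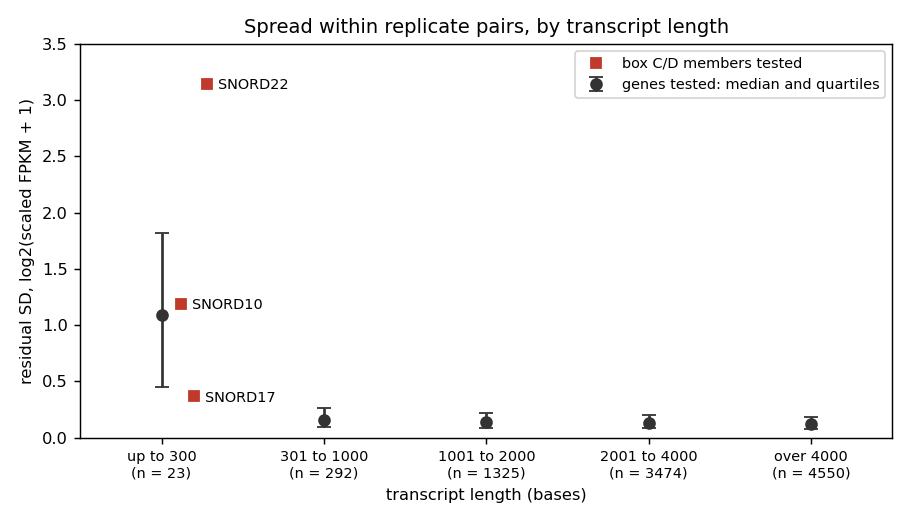
Residual SD on the log2(scaled FPKM + 1) scale by transcript length, as the median with quartiles over the genes tested (black), and for the 3 members tested (red, set beside the class of up to 300 bases to which they belong). The class of up to 300 bases has a median of 1.09 and the other classes 0.123 to 0.156.

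Host genes were measured far above most members. For 19 members a host gene was in the tables, 18 genes in all, and 15 members lay in an intron of the canonical host transcript. The hosts of SNORD22 (SNHG1), SNORD76 (GAS5) and SNORD49A (SNHG29, listed as LRRC75A-AS1) were named from the RefSeq gene spans. The median over the 6 libraries of the host's FPKM had a median of 206 FPKM over the 19 members. For the 9 members at 0 throughout that had a host in the tables, it was 423 FPKM, and 7 of these 9 hosts were at 100 FPKM or more.

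The ribosomal protein genes RPL4 (SNORD16) and RPL3 (SNORD83A) had medians of 1291 and 1220 FPKM, with their snoRNAs at 0. RPL23A (SNORD4A) and RPL17 (SNORD58C) had medians of 423 and 534 FPKM. NOP56, which is both a core protein of box C/D particles and the host of SNORD86, had a median of 137 FPKM. RNF149 (SNORD89) was the lowest host at 1.53 FPKM, and SNORD89 lay outside its canonical transcript.

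SNORD33 was at 1206 FPKM in the library in which its host RPL13A was at 1200 FPKM, and at 0 in the other 5, where RPL13A was between 557 and 1080 FPKM. SNORD76 was at 551 FPKM in a library in which its host GAS5, a noncoding snoRNA host gene, was at 179 FPKM. GAS5 was at 118 to 302 FPKM in the other 5, with SNORD76 at 0. SNORD33 was thus seen in the library where its host was highest, and SNORD76 in a library where its host was neither highest nor lowest. SNORD33 has 83 bases and SNORD76 has 81, below the fitted lengths, so the number of fragments behind either value was not placed. The fitted step grew as length fell. Across libraries it was 3.06 to 6.91 FPKM at 148 bases and 12.5 to 34.0 FPKM at 126 bases. Whether either value follows the level of its host was not tested.

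SNORD17 was the member whose level came nearest its host over all libraries. SNX5 was at 27.6, 54.3 and 57.2 FPKM in ROCK2 KD and at 28.3, 54.1 and 54.9 FPKM in Scr shRNA. The ratio of SNORD17 to SNX5 was 0.299, 0.995 and 0.400 in ROCK2 KD replicates 1, 2 and 3 and 0.272, 0.699 and 0.585 in Scr shRNA, lowest in replicate 1 and highest in replicate 2 in both groups. EIF4A1, the host of SNORD10, had a median of 541 FPKM, and SNHG1, the host of SNORD22, one of 95.6 FPKM.

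**Figure D5:**
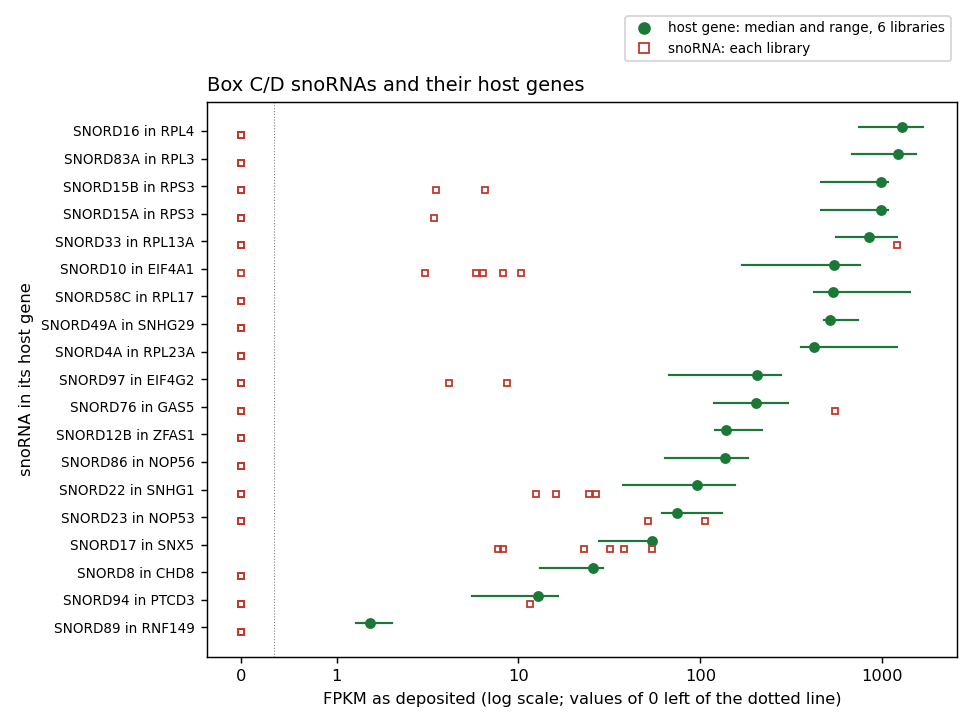
FPKM (log axis, with values of 0 left of the dotted line) of each snoRNA in the 6 libraries (red squares) beside the median and range of its host gene (green). Most hosts lie between 10 and 1000 FPKM or above while most red squares lie at 0, and SNORD17 overlaps the range of SNX5.

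None of the 18 host genes was called between ROCK2 KD and Scr shRNA (lowest adjusted p = 0.900). Their differences ran from -0.31 (SNHG1) to 0.17 (RNF149) with a median of -0.06, against -0.01 over all genes tested, and 13 of the 18 were lower in ROCK2 KD, where 5445 of the 10526 genes tested were. At an unadjusted p under 0.05, 1 of 18 was lower (GAS5, by 0.26 on the log2(scaled FPKM + 1) scale), where 5.42% of all genes were called in either direction. Between replicate numbers 10 of the 18 hosts were called, against 48.8% of all genes tested. RPL23A was at 1047 and 1200 FPKM in the replicate 3 libraries and at 360 to 428 FPKM in the others.

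The 4 core proteins of box C/D particles were measured in every library and none was called between ROCK2 KD and Scr shRNA (lowest adjusted p = 0.990), with 2 higher and 2 lower and a median difference of 0.01. FBL was at 92.6, 268 and 203 FPKM in ROCK2 KD and at 75.7, 245 and 248 FPKM in Scr shRNA. NOP58 was at 39.7, 152 and 94.3 FPKM and at 42.7, 125 and 109 FPKM. SNU13, listed as NHP2L1, was at 70.8, 185 and 171 FPKM and at 61.8, 175 and 182 FPKM. Both replicate 1 libraries had the lowest FPKM of these genes, as deposited.

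Of 13 assembly factors of box C/D particles, 0 were called, 4 were higher and 9 lower in ROCK2 KD, with a median of -0.03. The chaperone HSP90AA1 was lower at an unadjusted p under 0.05 (by 0.44 on the log2(scaled FPKM + 1) scale, adjusted p = 0.816). This was 1 of the 13, where 5.42% of all genes were under that p in either direction. By pair it differed by -0.79, -0.25 and -0.27. The other small RNA classes had 0 calls too. Of 13 SNORA tested 7 were higher and 6 lower, and 3 of the former and 2 of the latter had an unadjusted p under 0.05, where 5.42% of all genes did (lowest adjusted p = 0.757). Of 4 SCARNA tested 1 was higher and 3 lower, 1 of these at an unadjusted p under 0.05. Their median residual SDs were 1.22 and 0.485, so the H/ACA snoRNAs spread about as widely as SNORD10.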

How the data were processed

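RNA-seq of 6 U2932 libraries was analysed. Per the labels and the methods of the study, total RNA was made into Nextera libraries, 50-bp paired reads were aligned to hg19 with STAR, and the authors computed FPKM with Cufflinks, which they deposited per gene symbol. The annotation used, and any selection of RNA by poly(A) or size, are not given in the sources used here. The read counts of the study were not used here. FPKM hold no depth, so no counting interval is given beyond the fitted steps.

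Scaling factors were trimmed means of the log ratios between libraries, without the outer 0.3 of ratios and 0.05 of levels. The 10526 symbols that reached 1 FPKM in 3 or more libraries were fitted with limma 3.58.1 (R 4.3.3) on log2(scaled FPKM + 1), two-sided, with the replicate number as a block, a variance trend and Benjamini-Hochberg adjustment at 0.05. Differences on this scale understate the change of low genes. Same-numbered libraries, numbered alike in the labels, deviated together from their group means (correlations across genes 0.847, 0.785 and 0.736). Lengths came from RefSeq, positions and sequences from GENCODE 44 lifted to GRCh37, and lengths covered 91.8% of the genes tested. Python 3.11.15, pandas 2.3.3, numpy 2.4.6, scipy 1.17.1 and matplotlib 3.10.9 were used, and the fits were tested on simulated data.

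The members and lists were chosen with earlier results of these data known. Named were to be the 10 members with the highest median FPKM, those changed alike in all pairs, SNORD22 as a processing snoRNA, the core proteins and ROCK2. Only 3 members had a median above 0, so all 21 are named, and host and other genes were picked with their values in view. The SNORD3 and SNORD14 families, SNORD13, SNORD118 and the imprinted SNORD clusters were not analysed here, and the sequence of a further member and the level of a marker are not reported here. Alternatives covered the block, scaling, filter, pseudocount, variance trend and each replicate left out.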

Additional observations from a re-analysis of the deposited data

How the results depend on the processing

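Of the 90 alternatives planned, 78 kept the direction and the side of the threshold, or moved a value by less than 1 SD between members or replicates, 8 moved further and 4 reversed. This rule was wide, and a count of 3 against 2 was kept too. Among the 78 were a median residual SD of 2.46 in place of 1.19 and changes of sign in the median difference of the members tested. That median, 0.03, was -0.48 without replicate 1, -0.45 with no filter and -1.36 without replicate 3. No member was called between ROCK2 KD and Scr shRNA under any alternative, with or without the replicate block: the counts at an adjusted and at an unadjusted p under 0.05 stayed at 0 without it. Over all genes, 570 had an unadjusted p under 0.05 with the block and 31 without it, and with the replicate means removed beforehand 2075 did, of which 110 were called after adjustment. At an unadjusted p under 0.05 there were 0 of 2 members tested without replicate 1 (971 of 10230 genes), 1 of 3 without replicate 2 (525 of 10078 genes) and 2 of 3 without replicate 3 (413 of 10151 genes). Without replicate 1, 40 of the 10230 genes were called after adjustment.

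The number of members differing between replicate numbers was 2 of 3 tested (5132 of 10526 genes). It was 1 of 3 with a pseudocount of 0.1 (5019 of 10526 genes), 1 of 3 without scaling (8113 of 10526 genes) and 1 of 1 with FPKM of at least 1 in every library (4894 of 9648 genes). It was 0 of 2 members tested without replicate 1, where 990 of 10230 genes were called, and 3 and 2 of 3 without replicates 2 and 3, where 4205 of 10078 and 4520 of 10151 genes were. With no filter it was 2 of 10, SNORD17 and SNORD97, where 5428 of 18785 genes were called. SNORD97 stood at 2 steps in ROCK2 KD replicate 3, at 1 in Scr shRNA replicate 3 and at 0 elsewhere. With a replicate left out, the difference of SNORD17 ran from -0.21 (without replicate 2; -0.002 without replicate 1) to 0.31, that of SNORD10 from -1.36 to 0.23 (without replicate 2) and that of SNORD22 from -2.02 (without replicate 3) to 2.30. With only the symbols past the filter in the sums, which leaves SNORD10, SNORD17 and SNORD22, the members' share was 0.0113% in ROCK2 KD replicate 3, 0.0162% in Scr shRNA replicate 2 and 0.00733% in Scr shRNA replicate 3. The median residual SD of the members tested, 1.19, was 2.46 with a pseudocount of 0.1, 0.367 where SNORD17 was the only member left by the stricter filter, and 0.541 to 1.15 with a replicate left out. The difference of SNORD10 was -1.64 with a pseudocount of 0.1. The causes of the other shifts were not tested. Among alternatives added after seeing the data, 8 to 10 members were above 0 in at least 1 library when a library or a replicate was left out, and the summed steps were 20 in place of 21 from a single start. The depth behind a value is not in FPKM, and a step was fitted only for the 6 members of 126 to 148 bases, whose values stood at 1 to 3 steps.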
